A study of Mus musculus with 12 samples.

Results

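The 10 genes described here encode the sensor, kinases, caspases and pore proteins of necroptosis and pyroptosis, forms of inflammatory cell death. They are Zbp1, Ripk1, Ripk3, Casp8, Mlkl, Casp1, Casp4, Casp12, Gsdmd and Pycard. They were chosen by symbol from the 24619 genes of the deposited count table, with earlier results of these data known, so their values and calls are given as a description. Of the 10, 9 passed the filter on low counts and were tested, and Pycard did not.

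In necroptosis, ZBP1, a sensor of Z-form nucleic acids, and the death receptor kinase RIPK1 engage the kinase RIPK3 through a shared interaction motif. RIPK3 then phosphorylates MLKL, which permeabilises the plasma membrane, while caspase-8 cleaves the kinases and holds this route in check. In pyroptosis, caspase-1, recruited to inflammasomes by the adaptor ASC (the product of Pycard), and mouse caspase-11 (the product of Casp4), which senses bacterial lipopolysaccharide, cleave gasdermin D into a pore-forming fragment. Zbp1 and Casp4 are known as interferon-induced genes.

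Messenger RNA was sequenced from mouse cells that the labels call primary cardiac fibroblasts, heart cells that make extracellular matrix, in 4 groups of 3 libraries. All cells were grown with 10% serum, starved for 12 h and then kept for 24 h in the conditioned medium of lentivirus-infected adipocytes, meaning medium that holds what those cells released. For OE_CM the adipocytes overexpressed the human microRNA hsa-miR-548ay. For TGF_KD_CM that microRNA was inhibited in the adipocytes and the fibroblast-activating growth factor TGF-beta1 was also used. TGF_VEC_CM combined TGF-beta1 with medium of vector-infected adipocytes, and VEC_CM had vector medium without TGF-beta1. Groups follow the titles of the samples; in OE_CM and TGF_KD_CM, the treatment field of replicates 2 and 3 reads 549ay and 550ay. The labels place the groups with TGF-beta1 in another part of the study than OE_CM and VEC_CM, so TGF-beta1 and study part cannot be told apart. No group combined inhibition medium with cells lacking TGF-beta1, or overexpression medium with TGF-beta1.

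Library totals ran from 33379207 to 37226153 counts, so a floor of 3 counts equals 0.0899 CPM or less, CPM being counts scaled to a common library size. Separate cultures are not stated for the libraries within a group, so the tests rest on library-to-library spread alone, possibly technical. Of the fibroblast markers, 9 of 10 were in the table, and Tcf21 was not. Their summed level was 9414 to 9735 CPM in TGF_KD_CM, 8579 to 8663 CPM in TGF_VEC_CM, 9786 to 10030 CPM in OE_CM and 9464 to 9562 CPM in VEC_CM. Among them Dcn was at or below 0.27 CPM, Thy1 at or below 0.54 CPM and Lum at or below 3 counts in every library. In such bulk samples, fewer cells of a type and less RNA per cell cannot be told apart.

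Casp1, Casp4 and Casp12 lie next to each other on mouse chromosome 9, at 5298517 to 5307281, 5308849 to 5336791 and 5345442 to 5373034 in GRCm38.p6. They are the 3 genes annotated in that span of 74518 bases, with gaps of 1567 and 8650 bases between them. Their promoters are shown because these neighbours changed in the same direction in each comparison. Ripk3 and Mlkl, on other chromosomes, were called in those same directions, with smaller changes. The window at the downstream start of Ripk1, on chromosome 13, is shown because it alone of the other member windows held the motif described below. RefSeq (GRCm38.p6) gave windows of 250 bases before to 50 bases after an annotated start for 8 of the 10 members; Zbp1 and Gsdmd are named only. Windows were searched on both strands for the GAS motif TTCNNNGAA, a site type bound by STAT factors, which 8.30% of 32851 RefSeq promoter windows hold. The sequences run 5′ to 3′ on the plus strand, and capitals mark the motif. The windows are chr9:5298267-5298566 for Casp1, chr9:5308599-5308898 for Casp4, chr9:5345226-5345525 for Casp12 and chr13:34002624-34002923 for the downstream start of Ripk1.
Casp1: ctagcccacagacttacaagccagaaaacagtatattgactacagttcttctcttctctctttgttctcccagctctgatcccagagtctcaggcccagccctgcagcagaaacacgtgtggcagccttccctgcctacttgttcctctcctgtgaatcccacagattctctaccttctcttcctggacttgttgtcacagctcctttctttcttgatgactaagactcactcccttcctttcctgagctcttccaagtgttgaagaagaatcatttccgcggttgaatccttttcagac
Casp4: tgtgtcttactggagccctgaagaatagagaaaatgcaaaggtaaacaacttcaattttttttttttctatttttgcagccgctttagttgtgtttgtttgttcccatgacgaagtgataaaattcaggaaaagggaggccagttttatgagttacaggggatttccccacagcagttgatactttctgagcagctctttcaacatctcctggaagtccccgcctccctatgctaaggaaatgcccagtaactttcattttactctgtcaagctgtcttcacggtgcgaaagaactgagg
Casp12: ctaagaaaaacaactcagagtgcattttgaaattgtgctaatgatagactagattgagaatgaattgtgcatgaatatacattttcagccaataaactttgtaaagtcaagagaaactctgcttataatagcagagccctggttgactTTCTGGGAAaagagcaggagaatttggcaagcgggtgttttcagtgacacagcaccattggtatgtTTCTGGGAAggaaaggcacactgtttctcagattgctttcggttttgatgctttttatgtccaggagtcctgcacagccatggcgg
Ripk1: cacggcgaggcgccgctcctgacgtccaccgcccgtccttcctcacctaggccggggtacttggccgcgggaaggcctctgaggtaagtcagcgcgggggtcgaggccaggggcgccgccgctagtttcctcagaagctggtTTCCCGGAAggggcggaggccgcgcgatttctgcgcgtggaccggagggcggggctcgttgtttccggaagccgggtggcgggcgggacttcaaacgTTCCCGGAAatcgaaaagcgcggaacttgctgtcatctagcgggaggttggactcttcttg
The Casp12 window holds the motif at 102 and 36 bases before the start, and the Ripk1 window at 108 and 11 bases before it. These letters are not in the window of the upstream start of Ripk1 (chr13:34002113-34002412), in the Casp1 and Casp4 windows, nor in those of Casp8, Mlkl, Ripk3 and Pycard. A match describes the letters and is no evidence of binding. Another motif, the interferon-stimulated response element, was also searched in these windows, and its matches are not reported here.

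Across all 14400 genes tested with edgeR's quasi-likelihood test (adjusted p at or below 0.05), OE_CM against VEC_CM called 28.4% of genes higher and 25.7% lower. Of the 9 members tested, 1 was called higher (Zbp1) and 6 lower (Ripk3, Mlkl, Casp1, Casp4, Casp12 and Gsdmd). Their median log2 fold change was -0.23, against -0.01 over all genes. The split of all calls depended on scaling, with 4083 higher and 3695 lower under TMM but 2798 higher and 5059 lower under upper-quartile scaling.

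For TGF_KD_CM against TGF_VEC_CM, 23.0% of all genes were called higher and 20.2% lower. Of the members, 7 were called higher (Zbp1, Ripk1, Ripk3, Mlkl, Casp1, Casp4 and Casp12) and 0 lower, with Casp8 and Gsdmd not called. The median log2 fold change was 0.20, against 0.00 over all genes. For TGF_VEC_CM against VEC_CM, 28.9% of genes were called higher and 29.4% lower. Zbp1 was called higher, while Ripk1, Ripk3, Mlkl, Casp1, Casp4 and Casp12 were called lower. The members' median was -0.28, against 0.004 over all genes. The last comparison shares TGF_VEC_CM with the inhibition comparison and VEC_CM with the overexpression comparison, so the 3 are not independent.

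**Figure D1:**
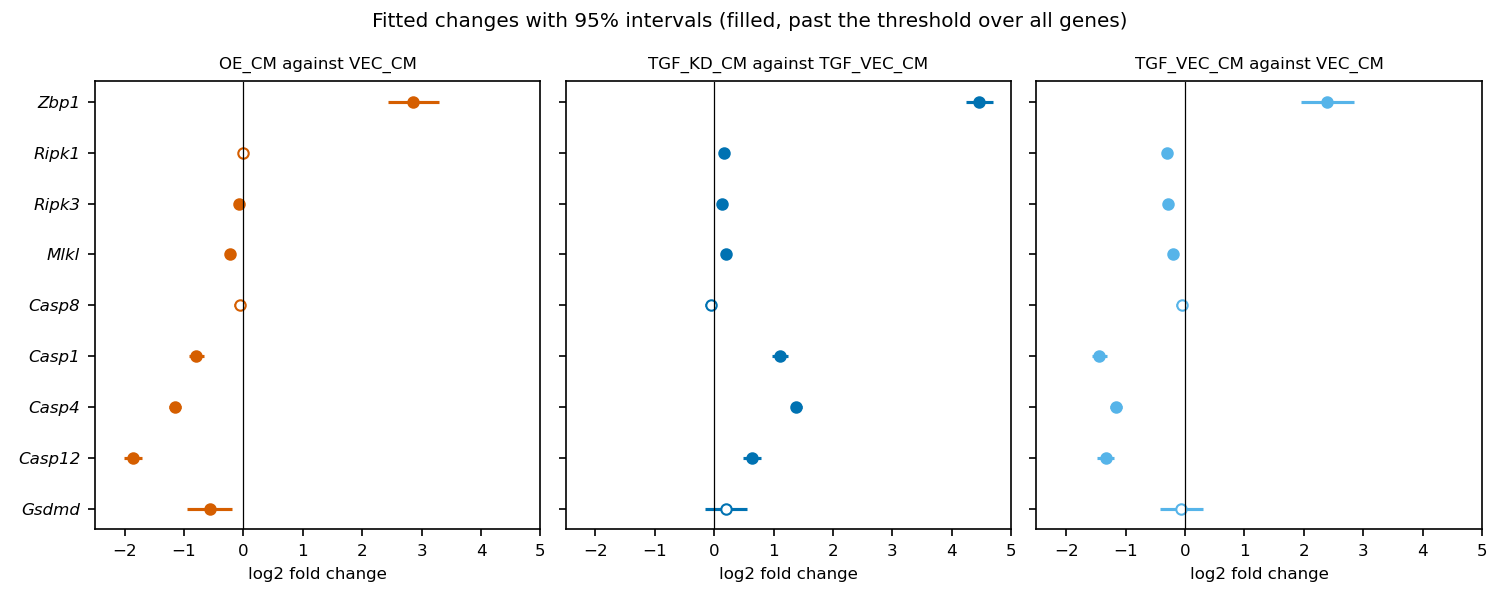
Fitted log2 fold changes of the 9 members tested, 1 panel per comparison, with 95% intervals; filled points passed the threshold over all genes. Zbp1 is positive in every comparison, and Casp1, Casp4 and Casp12 are negative with OE_CM and TGF_VEC_CM and positive with TGF_KD_CM.

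Zbp1 (NCBI gene 58203, chromosome 2, 173206612 to 173218959) spanned the widest range of the members. It had 12.3, 12.5 and 15.4 CPM in OE_CM, against 1.23, 2.18 and 2.11 CPM in VEC_CM. It had 199.9, 217 and 226 CPM in TGF_KD_CM, against 8.34, 10.6 and 10.2 CPM in TGF_VEC_CM. Every OE_CM library lay above every VEC_CM library, every TGF_KD_CM library lay above all others, and every TGF_VEC_CM library lay above every VEC_CM library.

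The fitted rise of Zbp1 was 7.25-fold in OE_CM against VEC_CM (log2 2.86 ± 0.19; errors of log2 fold changes are SE and those of levels SD), where the VEC_CM libraries held 45, 80 and 77 reads. In TGF_KD_CM against TGF_VEC_CM it was 22.1-fold (log2 4.47 ± 0.11), and in TGF_VEC_CM against VEC_CM it was 5.27-fold (log2 2.40 ± 0.20). Fitted on log2(FPKM + 1), a pseudocount that compresses low values, these log2 values were 1.90, 4.17 and 1.61. Zbp1 was thus higher both with overexpression medium and with inhibition medium, each against its own vector medium.

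Including Zbp1, 16 genes rose at least 16-fold in TGF_KD_CM against TGF_VEC_CM, among them the interferon-induced genes Ifi44, Oas2, Ifit1 and Isg15. Of the other 15, Bank1 had at most 1 count in any OE_CM or VEC_CM library and gives no fold there. Of the 14 that remain, 0 were called higher in OE_CM against VEC_CM, 4 were called lower and 10 were not called, with log2 fold changes between -1.58 and -0.09. Over all genes, that comparison called 28.4% higher and 25.7% lower, so the 4 called lower are near the share over all genes. Most of the 14 were low in both groups (for Ifi44 the OE_CM mean was 0.23 CPM and the VEC_CM mean 0.39 CPM). A small change of an uncalled gene could thus be missed at this depth. The 4 genes called lower were also low: Ifit1, for example, held 37 reads summed over OE_CM, against 99 over VEC_CM. The set was defined after its values were seen.

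**Figure D2:**
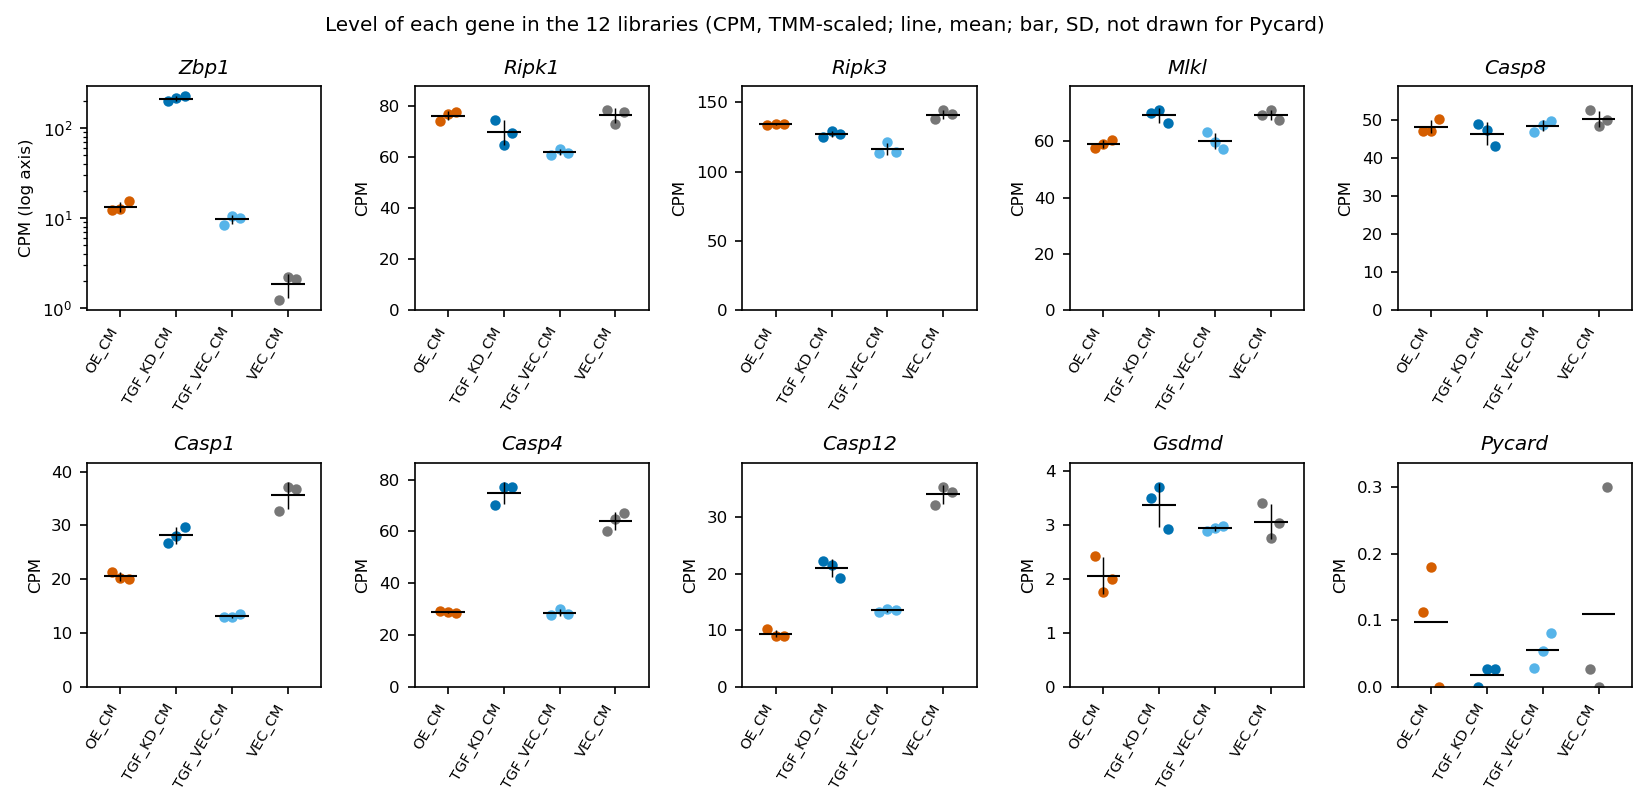
CPM of the 10 members in each of the 12 libraries (points), with the group mean as a line and the SD as a bar (none drawn for Pycard); the Zbp1 axis is logarithmic. Zbp1 is at 199.9 to 226 CPM in TGF_KD_CM and at or below 15.4 CPM elsewhere, and Casp1, Casp4 and Casp12 are low in OE_CM and TGF_VEC_CM.

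The kinases that ZBP1 and death receptors engage moved little. Ripk1 (NCBI gene 19766) had 74.2, 76.7 and 77.5 CPM in OE_CM, against 78.4, 72.9 and 77.7 CPM in VEC_CM, and the groups overlapped. It had 74.6, 64.9 and 69.4 CPM in TGF_KD_CM, against 61.0, 63.2 and 61.7 CPM in TGF_VEC_CM, without overlap. Its log2 fold change was 0.17 ± 0.04 in TGF_KD_CM against TGF_VEC_CM, a call lost without TGF_KD_CM replicate 1 (0.10), and -0.30 ± 0.04 in TGF_VEC_CM against VEC_CM. In OE_CM against VEC_CM the 95% interval ran from -0.09 to 0.08. Exons of Ripk1 overlap those of Gm17084 on the same strand by 511 bases and those of Serpinb6a on the opposite strand by 241 bases. Serpinb6a had 12733 to 17281 counts per library, and Gm17084 is not in the count table. The strand setting of the counting is not given in the sources used here. Some reads counted for Ripk1 could thus belong to another of these genes.

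Ripk3 (NCBI gene 56532, chromosome 14), the kinase that activates MLKL, was the highest member per length in every group but TGF_KD_CM. It had 134, 135 and 134 CPM in OE_CM, against 138, 144.5 and 141 CPM in VEC_CM. It had 125, 129 and 127 CPM in TGF_KD_CM, against 114, 121 and 114 CPM in TGF_VEC_CM. Neither pair of groups overlapped, and the log2 fold changes were -0.08 ± 0.03 and 0.13 ± 0.03. The first call was lost when any of 5 libraries was left out. In TGF_VEC_CM against VEC_CM the log2 fold change was -0.28 ± 0.03.

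Casp8 (NCBI gene 12370, chromosome 1) encodes the protease that restrains RIPK3 and starts death receptor apoptosis. It had 47.2, 47.2 and 50.2 CPM in OE_CM, against 52.6, 48.4 and 49.9 CPM in VEC_CM. It had 48.9, 47.3 and 43.2 CPM in TGF_KD_CM, against 46.9, 48.8 and 49.7 CPM in TGF_VEC_CM. The groups overlapped in both comparisons and Casp8 was not called in any, with 95% intervals of -0.16 to 0.04 in each of them on the log2 scale. It was called lower in OE_CM against VEC_CM under upper-quartile scaling (log2 -0.15) and under limma on log2(FPKM + 1) and log2(FPKM + 0.1) (-0.13 and -0.14).

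Mlkl (NCBI gene 74568, chromosome 8), the executioner of necroptosis, had 57.7, 59.0 and 60.6 CPM in OE_CM, against 69.3, 71.0 and 67.5 CPM in VEC_CM. It had 70.2, 71.1 and 66.3 CPM in TGF_KD_CM, against 63.3, 59.7 and 57.3 CPM in TGF_VEC_CM. The groups did not overlap in either comparison. The log2 fold changes were -0.23 ± 0.04 and 0.20 ± 0.04, and -0.21 ± 0.04 in TGF_VEC_CM against VEC_CM.

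Casp4 (NCBI gene 12363), the mouse caspase-11 gene, had 29.2, 29.1 and 28.5 CPM in OE_CM, against 60.1, 65.0 and 67.0 CPM in VEC_CM. It had 70.1, 77.3 and 77.1 CPM in TGF_KD_CM, against 27.9, 30.1 and 27.9 CPM in TGF_VEC_CM. OE_CM and TGF_VEC_CM thus lay at a similar level, far below the other groups. Casp4 fell by 1.15 ± 0.05 on the log2 scale in OE_CM against VEC_CM, rose by 1.39 ± 0.05 in TGF_KD_CM against TGF_VEC_CM and fell by 1.16 ± 0.05 in TGF_VEC_CM against VEC_CM.

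Casp1 (NCBI gene 12362), the protease of inflammasomes that also matures interleukin-1 beta, had 21.4, 20.2 and 20.0 CPM in OE_CM, against 32.8, 37.2 and 36.8 CPM in VEC_CM. It had 26.7, 28.1 and 29.8 CPM in TGF_KD_CM, against 13.0, 12.9 and 13.5 CPM in TGF_VEC_CM. No groups overlapped in either comparison, and TGF_KD_CM stayed below VEC_CM. The log2 fold changes were -0.80 ± 0.06 and 1.10 ± 0.07, and -1.44 ± 0.07 in TGF_VEC_CM against VEC_CM.

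Casp12 (NCBI gene 12364), a caspase of the same cluster linked to the endoplasmic reticulum, had 10.1, 9.03 and 8.98 CPM in OE_CM, against 32.2, 35.4 and 34.5 CPM in VEC_CM. It had 22.3, 21.5 and 19.2 CPM in TGF_KD_CM, against 13.2, 13.7 and 13.6 CPM in TGF_VEC_CM. OE_CM was below every other group, and no groups overlapped. The log2 fold changes were -1.86 ± 0.08 and 0.64 ± 0.07, and -1.33 ± 0.07 in TGF_VEC_CM against VEC_CM. None of the exon sequence of Casp1 or Casp12 was shared with another gene over 50 bases, and 0.24% of that of Casp4 was, with Gm42768.

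Leukocytes also express Casp1, and their 16 markers summed to 25.8 to 45.2 CPM in OE_CM, against 53.3 to 55.9 CPM in VEC_CM. The sum was 35.5 to 37.6 CPM in TGF_KD_CM, against 39.1 to 43.3 CPM in TGF_VEC_CM. Of the 13 markers tested, 0 were called higher and 4 lower in OE_CM against VEC_CM, and 1 higher (Cd14) and 2 lower (Lyz2 and Ptprc) in TGF_KD_CM against TGF_VEC_CM. In TGF_VEC_CM against VEC_CM, 1 was called higher and 6 lower. The shares over all genes were 28.4% higher and 25.7% lower in OE_CM against VEC_CM. They were 23.0% and 20.2% in TGF_KD_CM against TGF_VEC_CM, and 28.9% and 29.4% in TGF_VEC_CM against VEC_CM. Without Lyz2, the other 15 summed to 16.1 to 29.8 CPM in OE_CM, against 32.0 to 32.7 CPM in VEC_CM, and to 20.9 to 22.6 CPM in TGF_KD_CM, against 19.9 to 22.8 CPM in TGF_VEC_CM. Lyz2 was the highest of these markers, at a mean of 17.4 CPM over the 12 libraries. The sum of all 16 was lower in TGF_KD_CM than in TGF_VEC_CM, and the sum without Lyz2 overlapped between them. Both sums lay lower in OE_CM and in TGF_VEC_CM than in VEC_CM. In TGF_KD_CM, Cd14 averaged 8.43 CPM and Cd68 6.97 CPM, of a mean sum without Lyz2 of 21.75 CPM. Ptprc, the pan-leukocyte gene, averaged 0.42 CPM in OE_CM, 0.26 CPM in TGF_KD_CM, 0.73 CPM in TGF_VEC_CM and 0.85 CPM in VEC_CM, and Cd3e was at or below 3 counts. Their part in the result was not tested.

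Gsdmd (NCBI gene 69146, chromosome 15), the pore protein cleaved by these caspases, was low. It had 2.43, 1.76 and 2.00 CPM in OE_CM, against 3.40, 2.76 and 3.04 CPM in VEC_CM, without overlap. It had 3.50, 3.72 and 2.92 CPM in TGF_KD_CM, against 2.89, 2.95 and 2.99 CPM in TGF_VEC_CM, and these overlapped. Its log2 fold change was -0.57 ± 0.19 in OE_CM against VEC_CM, a call lost without OE_CM replicate 2 (-0.46), and in TGF_KD_CM against TGF_VEC_CM the 95% interval ran from -0.16 to 0.56. Pycard (NCBI gene 66824), the inflammasome adaptor, had 4, 6 and 0 counts in OE_CM, 0, 1 and 1 in TGF_KD_CM, 1, 2 and 3 in TGF_VEC_CM and 1, 0 and 11 in VEC_CM, so no fold is given.

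The test of the difference between the inhibition and overexpression effects called 52.4% of all genes in either direction. It called 8 of the 9 members, all higher, and not Casp8 (0.00, 95% interval -0.14 to 0.14). The differences were 2.53 ± 0.07 for Casp4, 2.50 ± 0.10 for Casp12, 1.90 ± 0.09 for Casp1 and 1.61 ± 0.27 for Zbp1 on the log2 scale (2.27 for Zbp1 on log2(FPKM + 1)). For Zbp1 the difference is between 2 rises, and for the caspases between a fall and a rise.

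Per transcript length, from the deposited FPKM (counts scaled by library size and by a length per gene), the order of the members changed with Zbp1. In TGF_KD_CM Zbp1 led at 100.3 ± 6.01 FPKM, above Ripk3 at 65.4 FPKM, whereas in OE_CM it was at 5.90 ± 0.79 FPKM, in TGF_VEC_CM at 4.63 ± 0.58 FPKM and in VEC_CM at 0.85 ± 0.25 FPKM. The FPKM ratio of Zbp1 to Ripk3 averaged 1.53 ± 0.08 in TGF_KD_CM, against 0.076 ± 0.008 in TGF_VEC_CM, and 0.091 ± 0.012 in OE_CM, against 0.012 ± 0.003 in VEC_CM (SD, n = 3 each). The ratio of Casp4 to Casp1 was 2.70 ± 0.09 in TGF_KD_CM, against 2.22 ± 0.14 in TGF_VEC_CM, and 1.44 ± 0.04 in OE_CM, against 1.83 ± 0.05 in VEC_CM. The length behind the Ripk1 values is 16571 bases, 1.99 times its annotated exons. Those behind Casp4, Zbp1 and Ripk3 are 0.4, 0.61 and 0.86 times theirs. The order of these members and the size of the ratios therefore depend on the lengths used.

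**Figure D3:**
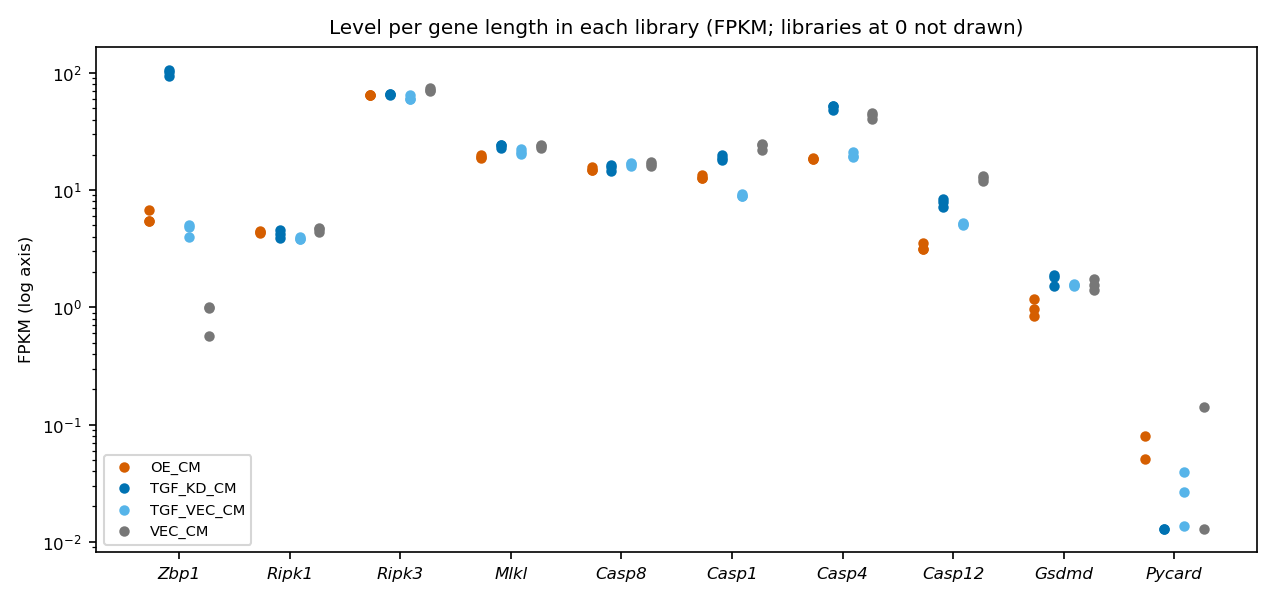
FPKM of the members in each library on a log axis; libraries at 0 are not drawn. Zbp1 is the highest member in TGF_KD_CM and far below Ripk3 in OE_CM, TGF_VEC_CM and VEC_CM.

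Profiles over the 4 group means were compared by the root mean square log2 difference among 11993 genes with a mean of at least 1 CPM. The closest to Zbp1 were Tgtp2 (1.03) and Igtp (1.04), interferon-inducible GTPases, against a median of 2.47 over all candidates. Both were close through TGF_KD_CM: Tgtp2 was at log2 CPM of -2.22 in OE_CM and -2.46 in VEC_CM, and Igtp at -0.68 in OE_CM and -0.73 in VEC_CM, without a difference of the size seen for Zbp1. Tgtp2 met the minimum of 1 CPM only through TGF_KD_CM. The closest to Casp1 were A330001L22Rik (0.07) and Gbp2 (0.09), the closest to Casp4 were Dennd5b (0.10) and Mill2 (0.10), and the closest to Casp12 was Cyb5a (0.05). The medians over all candidates were 0.55 for Casp1, 0.65 for Casp4 and 0.71 for Casp12, and the genes named were picked as the nearest of 11993. Between members, Ripk1 and Ripk3 differed by 0.03 and Casp1 and Casp4 by 0.34. Ripk1 and Ripk3 were nearly flat, with log2 ranges of 0.3 and 0.28 over the group means, so their profiles could differ little.

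Among interferon-induced genes, of 24 tested, 0 were called higher and 14 lower in OE_CM against VEC_CM (median log2 -0.59), with Oas3 (-1.70 ± 0.16) and Ifit1 (-1.29 ± 0.35) the largest falls. All 24 were called higher in TGF_KD_CM against TGF_VEC_CM (median 2.70), led by Ifi44 (6.65 ± 0.08) and Oas2 (5.74 ± 0.16). In TGF_VEC_CM against VEC_CM, 13 were called higher and 3 lower. The shares over all genes were 28.4% higher and 25.7% lower in OE_CM against VEC_CM. They were 23.0% and 20.2% in TGF_KD_CM against TGF_VEC_CM, and 28.9% and 29.4% in TGF_VEC_CM against VEC_CM.

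A list named for ZBP1 and TRIF input also held genes that are not inputs, such as Pgam5, Hsp90aa1 and Cdc37. Of its 11 genes tested, 5 were called higher and 3 lower in OE_CM against VEC_CM. In TGF_KD_CM against TGF_VEC_CM, 4 were called higher and 4 lower. The shares over all genes were 28.4% higher and 25.7% lower in the first comparison, and 23.0% and 20.2% in the second. The list medians were 0.028 and 0.074 on the log2 scale, against -0.008 and 0.00 over all genes. The largest called changes in OE_CM were a rise of Pgam5 (0.44 ± 0.04), a mitochondrial phosphatase, and a fall of Tlr4 (-0.95 ± 0.06), the lipopolysaccharide receptor, which was called higher in TGF_KD_CM (0.62 ± 0.06). Adar, which edits double-stranded RNA and limits ZBP1 activation, averaged 89.6 CPM in OE_CM, against 78.6 CPM in VEC_CM, and 199 CPM in TGF_KD_CM, against 98.9 CPM in TGF_VEC_CM. Its log2 fold changes were 0.19 ± 0.04 and 1.01 ± 0.03. Tlr3, a sensor of double-stranded RNA, was called lower in OE_CM (-0.64 ± 0.24) and higher in TGF_KD_CM (1.47 ± 0.21), and Ticam1, its adaptor TRIF, was called lower in both (-0.20 ± 0.07 and -0.72 ± 0.07).

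Of 26 death receptor and RIPK1 complex genes, 9 were called higher and 7 lower in OE_CM against VEC_CM, and 12 higher and 4 lower in TGF_KD_CM against TGF_VEC_CM. The shares over all genes were 28.4% higher and 25.7% lower in the first comparison, and 23.0% and 20.2% in the second. The list medians were -0.006 and 0.074 on the log2 scale, against -0.008 and 0.00 over all genes. The death receptor gene Fas was called higher in both (0.89 ± 0.16 and 0.95 ± 0.15). Traf5, a signalling adaptor of the receptors, had the largest fall in OE_CM (-1.08 ± 0.10) and was not called in TGF_KD_CM (-0.05 ± 0.10). Cflar, whose product FLIP modulates caspase-8, was called higher in TGF_KD_CM (0.29 ± 0.05) and not called in OE_CM (-0.09 ± 0.05), and the difference of its effects was 0.38 ± 0.07. Of 22 apoptosis genes, 8 were called higher and 10 lower in OE_CM, and 10 higher and 4 lower in TGF_KD_CM. Their median log2 fold changes were 0.029 and 0.123, and the shares over all genes are those given above. In OE_CM the largest called rise was that of Bmf (0.88 ± 0.19) and the largest fall that of Bcl2l11 (-0.89 ± 0.11), both of which encode pro-apoptotic BH3-only proteins.

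Of 19 inflammasome genes tested, 3 were called higher and 3 lower in OE_CM against VEC_CM, and 4 higher and 5 lower in TGF_KD_CM against TGF_VEC_CM. The shares over all genes were 28.4% higher and 25.7% lower in the first comparison, and 23.0% and 20.2% in the second. The list medians were -0.355 and -0.052 on the log2 scale, against -0.008 and 0.00 over all genes. Nlrp3, an inflammasome sensor, was low, at 0.30 CPM in OE_CM, 0.19 CPM in TGF_KD_CM, 0.67 CPM in TGF_VEC_CM and 0.56 CPM in VEC_CM. It was called lower in TGF_KD_CM against TGF_VEC_CM (-1.805 ± 0.48), with 21 reads summed over TGF_KD_CM, against 73 over TGF_VEC_CM. In OE_CM against VEC_CM it was not called (-0.915 ± 0.46). Txnip, a thioredoxin inhibitor that binds NLRP3, had the largest called fall in OE_CM (-1.06 ± 0.04) and was not called in TGF_KD_CM (-0.03 ± 0.04). Serpinb1a, an inhibitor of proteases, had the largest rise in OE_CM (0.50 ± 0.08). Aim2, a sensor of DNA, averaged 116 ± 6.48 CPM in OE_CM, against 100.2 ± 3.26 CPM in VEC_CM. Il1b, the cytokine matured by caspase-1, had 8.80, 3.08 and 3.04 CPM in OE_CM, against 4.79, 5.90 and 6.65 CPM in VEC_CM, so OE_CM replicate 1 stood above all VEC_CM libraries and the other OE_CM libraries below them. It was not called (-0.21 ± 0.38), but was called lower without OE_CM replicate 1 (-0.92). It was not called in TGF_KD_CM against TGF_VEC_CM (-0.03 ± 0.43). Its call in TGF_VEC_CM against VEC_CM (-1.13 ± 0.40) was lost when any 1 library of VEC_CM, TGF_VEC_CM or TGF_KD_CM was left out (-1.234 to -1.002).

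**Figure D4:**
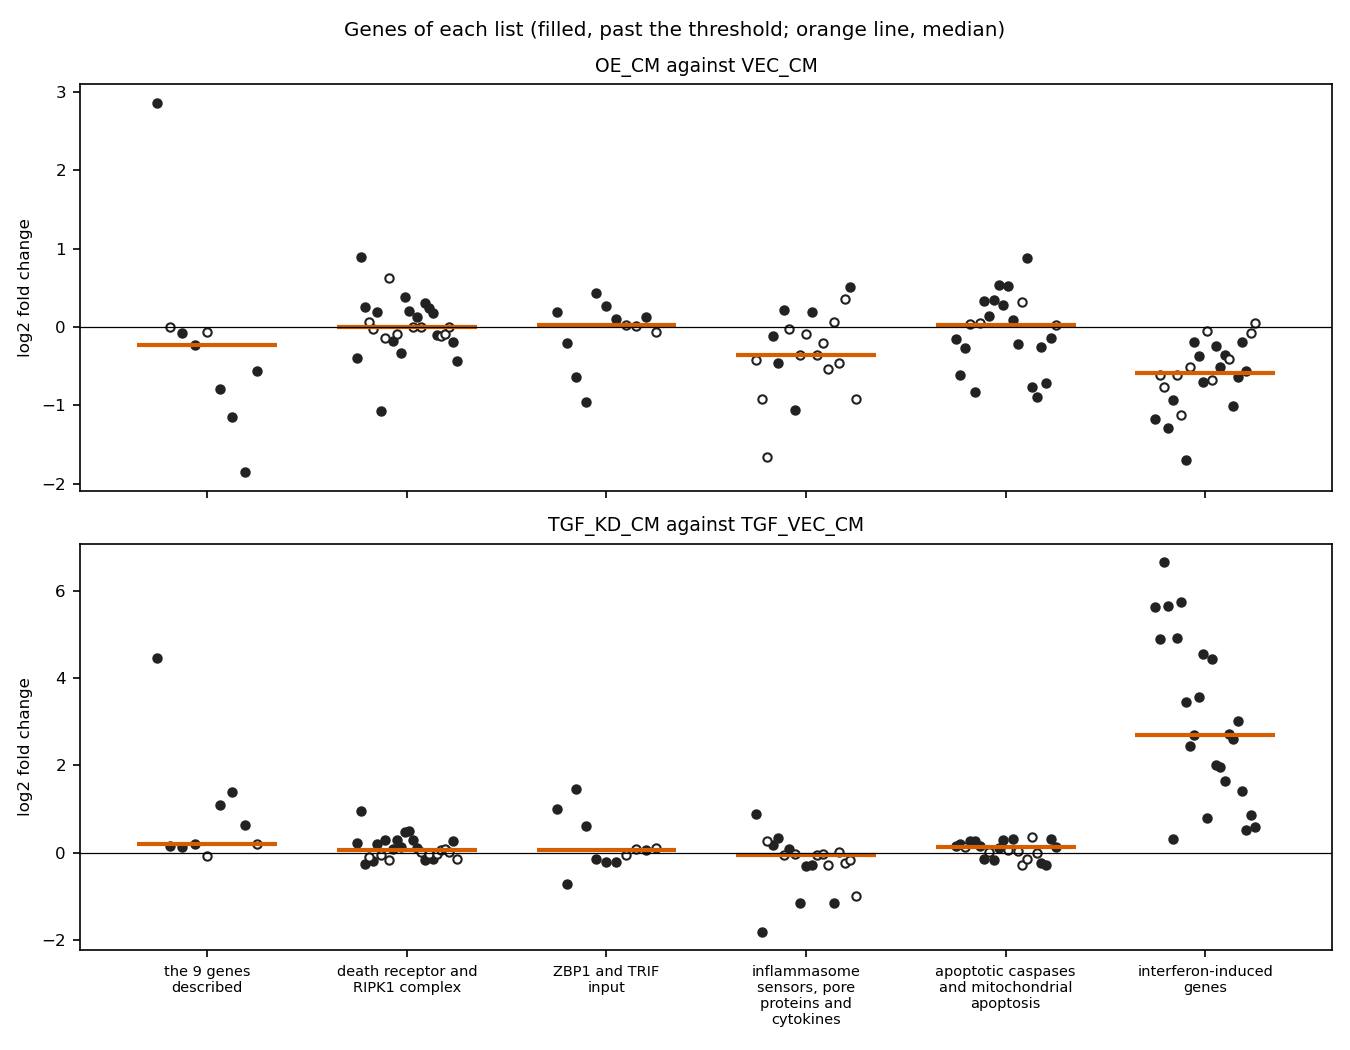
Log2 fold changes of the genes of each pathway list, with OE_CM against VEC_CM above and TGF_KD_CM against TGF_VEC_CM below; points are genes and orange lines medians. The interferon-induced genes have a median of -0.59 above and 2.70 below.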

How the data were processed

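Messenger RNA of 12 libraries was measured. The deposited counts are whole numbers per gene symbol without normalization; per the submitters' processing notes the build was GRCm38 (mm10). The aligner, the counter and its strand setting, and the annotation behind the counts: not given in the sources used here. The deposited FPKM values, which the authors made with 1 length per gene, were used for levels per length and for alternatives. The test was edgeR 4.0.16 (R 4.3.3): filterByExpr kept 14400 of 24619 genes, TMM factors were computed, and all 12 libraries entered 1 robust quasi-likelihood fit with a mean per group (two-sided, Benjamini-Hochberg over all genes tested, threshold 0.05). CPM values use the TMM factors. The members and lists were chosen with earlier results of these data known, so no p-value is given for members. List genes that could be named were the 2 largest called rises and the 2 largest called falls of a list in a comparison, and set partners of members, called or not; not all are named. Alternatives were RLE and upper-quartile scaling, no filter, limma 3.58.1 on FPKM, DESeq2 1.42.0, a test against 1.2-fold, a replicate block and leaving out each library. The code was tested on simulated data. Floors cover counting error only. Positions are from RefSeq.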

Additional observations from a re-analysis of the deposited data

Results flagged for a closer look

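The effects of inhibition medium (TGF_KD_CM against TGF_VEC_CM) and overexpression medium (OE_CM against VEC_CM) differed past the threshold, in a test of the difference itself, for 8 of the 9 members tested. The difference, inhibition minus overexpression on the log2 scale, was 1.61 for Zbp1, 0.17 for Ripk1, 0.20 for Ripk3, 0.43 for Mlkl, 1.90 for Casp1, 2.53 for Casp4, 2.50 for Casp12 and 0.77 for Gsdmd. The same test called 52.4% of all genes. The inhibition comparison was made with TGF-beta1 and the overexpression comparison without it, so the direction of the microRNA change and TGF-beta1 cannot be told apart in these differences.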

How the results depend on the processing

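The calls of Zbp1, Casp1, Casp4 and Casp12 held in the 3 comparisons and their difference under every alternative run. Against a 1.2-fold change, 4 members were called in each of the 3 comparisons, and genes called numbered 3078 in OE_CM against VEC_CM, 1507 in TGF_KD_CM against TGF_VEC_CM, 3575 in TGF_VEC_CM against VEC_CM and 4091 for the difference. Leaving out 1 library gave 5 to 7, 6 to 7, 7 and 7 to 8 members in that order, and 7176 to 7821, 5576 to 6307, 7810 to 8527 and 7238 to 7367 genes. With 1 library left out, the Ripk1 change in OE_CM ran from -0.034 to 0.014 (-0.091 under upper-quartile scaling), turning positive without VEC_CM replicate 1, VEC_CM replicate 3 or OE_CM replicate 1, and the Gsdmd change in TGF_VEC_CM from -0.132 to 0.035, positive without VEC_CM replicate 1. The Casp8 difference was -0.004 under RLE scaling and under DESeq2, and -0.047 to 0.043 with 1 library left out. None of these 3 was called, and the cause was not tested. Ripk1 in TGF_KD_CM was not called under limma (0.11 and 0.13 with pseudocounts of 1 and 0.1). The Ripk3 call in OE_CM was lost without VEC_CM replicate 2 or 3 or any 1 OE_CM library (-0.06 to -0.08), and the Ripk1 difference without VEC_CM replicate 1 or 3, OE_CM replicate 1 or TGF_KD_CM replicate 1. Replicate numbers did not pair the libraries (correlations of deviations at most 0.044); with a replicate block 7894, 6381, 8521 and 7678 genes were called, and 7, 7, 7 and 8 members.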
